A study of Mus musculus with 24 samples.

Results

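This account covers what TNF did to RNA levels in mouse cochlear organoids depleted of the splicing factor RBM25. The members are the 6 libraries of the depleted organoids, 3 with TNF and 3 without it, of 24 libraries in the study, chosen by their labels and compared over all 25190 genes of the deposited organoid count table. Cochlear epithelium of wild-type mice at postnatal day 1 to 2 was dissociated with trypsin. It was grown in Matrigel with growth factors and the Wnt activator CHIR99021, and then differentiated with CHIR99021 and the Notch pathway inhibitor LY411575. Every organoid group also received EGF and bFGF late in the culture, at 10 ng/mL each. The depleted organoids with TNF and the depleted organoids without it share the lentiviral knockdown of RBM25, the culture and the genotype, and differ by the addition of TNF-α alone in the labels. The other 6 organoid libraries carry no depletion, 3 with TNF and 3 without it, and are used only to ask where the TNF effect differed. Replicates are named KD_TNF and KD for the depleted organoids with TNF and without it, and TNF and control for the non-depleted ones. The titles call the depleted groups knockouts and the protocol a knockdown, and the protocol is followed here. The labels state no control vector and neither how much TNF was added nor for how long, and nothing states whether the 3 libraries of a group came from separate cultures, so the p-values measure the spread between these libraries.

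TNF is a cytokine that binds its receptors as a trimer and assembles a complex of adaptors and ubiquitin ligases on the inner face of the membrane. That complex switches on the IκB kinases, the inhibitor IκB is degraded, and NF-κB dimers enter the nucleus and raise genes for chemokines, adhesion molecules, survival factors and their own inhibitors. RBM25 is a nuclear RNA-binding protein that associates with the U1 small nuclear ribonucleoprotein and shifts the choice of splice sites.

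The labels were checked with Rbm25 itself (chromosome 12, 83632208 to 83683127 of GRCm38.p6). It stood at 103, 122 and 108 CPM (counts scaled to a common library size) in depleted organoids with TNF and at 149.97, 163 and 173 CPM in non-depleted organoids with TNF, a log2 difference of -0.55. Without TNF it stood at 96.9, 94.2 and 92.7 CPM in depleted organoids and at 142, 148 and 144 CPM in non-depleted organoids, a log2 difference of -0.61. Rbm25 was therefore lower in every depleted library than in any non-depleted one, but it was far from absent. Within the depleted organoids it was slightly higher with TNF, by 0.23 on the log2 scale (adjusted p = 0.00471), and this TNF effect did not differ past the threshold from that without depletion (log2 difference 0.07, adjusted p = 0.683). The libraries held 33802411 to 37048422 counts. Libraries labelled KD replicate 1 and TNF replicate 1 lay farthest from the others of their groups, and the counts below were also taken without them. Epithelial and hair cell markers were present in all 6 depleted libraries. Epcam, an epithelial adhesion molecule, had 737, 697 and 794 CPM with TNF, against 903, 998 and 949 CPM without it, and Myo7a, a hair cell myosin, had 37.1, 42.6 and 31.6 CPM with TNF, against 63.9, 42.3 and 44.3 CPM without it, with overlapping groups for Myo7a. The leukocyte gene Ptprc had 0 counts in all 6.

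TNF changed a large part of the transcriptome of depleted organoids. Of 15888 genes tested, 3630 rose and 3493 fell at an adjusted p under 0.05 (edgeR quasi-likelihood F-test, 3 libraries against 3), which is 22.8% higher and 22.0% lower, 44.8% in all. Among the genes called, the median absolute log2 fold change was 0.42, and the signed median over all genes tested, which the scaling holds near 0, was -0.013. At least 2-fold higher were 805 genes and at least 2-fold lower were 622. Large changes were mostly increases, with 237 genes at least 8-fold higher and 24 at least 8-fold lower. Without KD replicate 1 and TNF replicate 1 the counts were 3185 higher and 3445 lower. Every count of list members that follows is to be read against 22.8% and 22.0%. Of the 15888 genes, 298 passed the filter on low counts only through the libraries with TNF, which favours genes that are higher there. It does not force a rise in every gene, since the muscle gene Des, among them, did not pass the test. But Cxcl9, Cyp1a1, Ibsp, Isg15, Mmp7, Mpeg1, Oas1g, Ptgs2, Usp18 and Zbp1, also among them, all rose. The counts of large increases therefore rest in part on this filter.

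Promoters of 6 genes that rose are shown because they carry the letters of 2 known motif families, the κB motif bound by NF-κB and a paired GAAA element (GAAA, any 2 bases, GAAA) of the kind bound by interferon regulatory factors. Each sequence is the 250 bases before the annotated RefSeq start (GRCm38.p6), written 5′ to 3′ on the gene's own strand. Capitals mark a match to the κB consensus or to paired GAAA, searched on both strands with overlapping matches counted. Nfkbia (the IκBα gene, chr12:55492648-55492897, minus strand) and Nfkb2 (the p100 subunit, chr19:46304487-46304736, plus strand) have κB matches, Cxcl10 (a chemokine, chr5:92348890-92349139, minus strand) has 2 κB matches with 1 paired GAAA match upstream of them, and Isg15 (a ubiquitin-like protein, chr4:156200819-156201068, minus strand), Ifit3 (an antiviral protein, chr19:34583279-34583528, plus strand) and Oas1g (an oligoadenylate synthetase, chr5:120887614-120887863, minus strand) have paired GAAA matches.
Nfkbia: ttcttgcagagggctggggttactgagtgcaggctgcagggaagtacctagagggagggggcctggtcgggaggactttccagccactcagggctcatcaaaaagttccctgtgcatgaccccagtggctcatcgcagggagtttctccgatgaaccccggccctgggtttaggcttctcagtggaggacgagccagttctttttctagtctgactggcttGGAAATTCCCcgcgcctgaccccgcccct
Nfkb2: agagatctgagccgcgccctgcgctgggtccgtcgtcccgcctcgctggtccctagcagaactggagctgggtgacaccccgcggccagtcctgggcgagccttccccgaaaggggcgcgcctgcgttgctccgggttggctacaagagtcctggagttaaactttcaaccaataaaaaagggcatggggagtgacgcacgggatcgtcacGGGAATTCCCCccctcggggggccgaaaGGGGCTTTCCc
Cxcl10: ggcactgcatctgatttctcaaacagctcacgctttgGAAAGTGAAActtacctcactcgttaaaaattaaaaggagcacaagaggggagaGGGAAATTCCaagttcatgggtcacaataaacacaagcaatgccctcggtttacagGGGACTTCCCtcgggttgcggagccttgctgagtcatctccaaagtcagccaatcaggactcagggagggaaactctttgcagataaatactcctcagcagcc
Isg15: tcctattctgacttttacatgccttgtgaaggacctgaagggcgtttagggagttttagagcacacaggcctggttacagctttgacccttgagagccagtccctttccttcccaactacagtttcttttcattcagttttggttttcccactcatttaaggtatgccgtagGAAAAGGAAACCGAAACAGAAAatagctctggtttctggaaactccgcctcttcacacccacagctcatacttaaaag
Ifit3: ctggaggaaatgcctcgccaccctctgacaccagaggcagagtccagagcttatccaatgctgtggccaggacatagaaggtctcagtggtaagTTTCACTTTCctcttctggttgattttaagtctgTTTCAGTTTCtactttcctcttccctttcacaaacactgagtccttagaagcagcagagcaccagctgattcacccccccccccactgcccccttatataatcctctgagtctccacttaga
Oas1g: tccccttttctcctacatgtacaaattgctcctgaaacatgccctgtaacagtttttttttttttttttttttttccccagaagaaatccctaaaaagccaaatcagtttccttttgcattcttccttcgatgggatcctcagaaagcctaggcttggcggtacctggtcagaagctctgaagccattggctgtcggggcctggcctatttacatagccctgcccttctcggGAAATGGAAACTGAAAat

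The κB match of Nfkbia lies 29 to 20 bases before the start, and those of Nfkb2 within the last 39 bases. The paired GAAA matches of Isg15 run together from 78 to 57 bases before the start, and those of Oas1g from 18 to 3. Over the table, 3.75% of 27025 promoters hold a κB match in this window and 3.04% a paired GAAA match. For the genes tested, from which the sets below come, the shares were 4.46% and 2.51% of 12395 promoters. Among genes at least 8-fold higher with TNF in depleted organoids, 21.9% of 178 promoters hold a κB match and 16.9% a paired GAAA match. Among all genes that rose the shares were 6.19% and 4.16% of 2906 promoters, and among genes that fell 4.15% and 1.69% of 2725. For the interferon-stimulated list, 12 of 22 promoters (54.5%) hold paired GAAA. A match is a run of letters in the window and not a measured binding site.

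Among the receptors and proximal signalling proteins, the 2 receptors behaved differently. Tnfrsf1b, the second TNF receptor, had 10.5, 10.9 and 10.1 CPM with TNF, against 3.95, 5.49 and 6.16 CPM without it, and rose by 1.02 on the log2 scale (adjusted p = 1.4e-05). Tnfrsf1a, the receptor with a death domain, had 92.5, 84.7 and 92.0 CPM with TNF, against 86.0, 98.2 and 106 CPM without it (log2 fold change -0.11, adjusted p = 0.179). The libraries of the 2 groups were separate for Tnfrsf1b and overlapped for Tnfrsf1a. Tnf itself (chromosome 17, 35199367 to 35202007) was read in every library with TNF, at 1.605, 2.22 and 1.75 CPM, and in none of the 3 without it, which makes it at least 67.0-fold higher against a floor of 3 counts over the group. Of the list of 24 genes all were tested, 11 rose, 2 fell and 11 did not pass, with a median log2 fold change of 0.13.

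The adaptors and ligases next to the receptors rose together in part. Birc3, the ubiquitin ligase cIAP2, had 110.1, 111 and 102 CPM with TNF, against 5.20, 4.96 and 6.19 CPM without it, with a log2 fold change of 4.30 ± 0.07 (SE). Its relative Birc2 had 113, 109.5 and 109.8 CPM with TNF, against 57.5, 58.0 and 59.4 CPM without it (0.93 ± 0.05). Neither gene had overlapping groups. Traf2 and Traf3, which recruit these ligases, rose by 1.17 and 1.18, Traf5 by 1.13, and Map3k14, the kinase of the non-canonical branch, by 1.06 on the log2 scale. Smaller increases were seen for Tradd (0.44), the adaptor of the first receptor, for the deubiquitinase Cyld (0.37) and for the kinase Ikbkb (0.33). Traf1 went the other way, with 3.905, 3.87 and 3.31 CPM with TNF, against 7.47, 7.998 and 5.81 CPM without it, a log2 fold change of -0.94 (adjusted p = 2.7e-05), and Tab2 fell by 0.22. The kinases and scaffolds Ikbkg (0.02), Chuk (0.01), Ripk1 (0.09), Map3k7 (0.10), Tab1 (-0.01) and Tab3 (-0.13) did not pass the test, nor did the linear ubiquitin genes Rnf31 (0.14), Rbck1 (0.04), Sharpin (0.06) and Otulin (0.11).

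The NF-κB subunit genes rose unevenly. Relb had 93.6, 91.3 and 96.2 CPM with TNF, against 6.50, 8.72 and 7.84 CPM without it, and Nfkb2 had 124, 122.5 and 132 CPM with TNF, against 22.8, 23.9 and 24.4 CPM without it, with log2 fold changes of 3.61 ± 0.08 and 2.41 ± 0.05 (SE). Both belong to the non-canonical pathway, and in both the lowest library with TNF was several times above the highest without it. Bcl3, an atypical IκB that works with p50 and p52, had 17.3, 18.5 and 17.9 CPM with TNF, against 2.26, 3.12 and 4.57 CPM without it (2.44). Rel rose by 0.70 and Rela by 0.49, and Nfkb1 had a log2 fold change of 0.13 (adjusted p = 0.0562). So of the 6 genes of the subunit list, which includes Bcl3, 5 rose and none fell (median 1.56). Without Bcl3 the middle value is the 0.70 of Rel. Of the exon bases of Nfkb2, 12.6% and 7.08% are shared with 2 genes on the opposite strand, whose reads these unstranded libraries cannot separate.

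Genes of the inhibitors that close the loop rose with the subunits. Nfkbia (chromosome 12, 55489409 to 55492647) had 564, 565 and 542 CPM with TNF, against 29.2, 27.0 and 27.7 CPM without it, a log2 fold change of 4.31 ± 0.05 (SE, adjusted p = 9.28e-21). Tnfaip3, the ubiquitin-editing enzyme A20, had 176, 164 and 168 CPM with TNF, against 9.73, 7.05 and 7.55 CPM without it (4.38 ± 0.10). Its partner Tnip1 had 274, 265 and 275 CPM with TNF, against 32.2, 35.2 and 32.3 CPM without it (3.03 ± 0.06). In all 3 genes the replicates lay close together and the groups were far apart. Nfkbie, the gene of IκBε, had 83.3, 87.8 and 86.9 CPM with TNF, against 4.86, 4.10 and 4.31 CPM without it (4.28 ± 0.09). Tnfaip2 rose by 2.58, the RNase gene Zc3h12a by 1.40, Nfkbib by 1.04 and Nfkbiz by 0.83. Nfkbid (0.15), Tnip2 (0.20) and Tnfaip8 (0.15) did not pass. In all, 8 of 11 tested members rose and none fell (median 1.40).

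**Figure D1:**
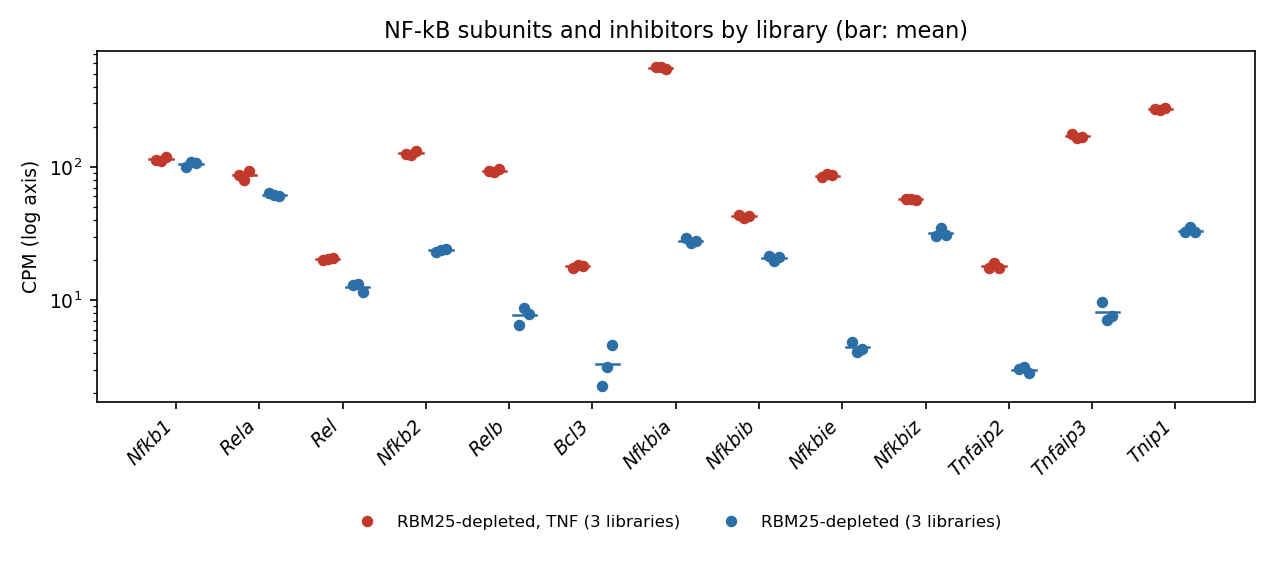
Levels of the 6 genes of the NF-κB subunit list, which includes the atypical IκB Bcl3, and 7 inhibitor and feedback genes in depleted organoids, in CPM on a log axis, with 1 point per library, a bar at each mean, and the libraries with TNF (red) left of those without it (blue). The 3 depleted libraries with TNF of Nfkbia sit between 542 and 565 CPM, against 27.0 to 29.2 CPM in the 3 without TNF.

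The TNF effect on this feedback circuit differed in size with depletion for some members. For Nfkbie the effect was larger in depleted organoids, by 0.70 ± 0.13 on the log2 scale (SE, adjusted p = 0.00147). It stood at 53.3, 60.0 and 57.8 CPM in non-depleted organoids with TNF and at 5.08, 5.26 and 3.94 CPM in those without it. For Nfkbia the difference was 0.21 (adjusted p = 0.0471), and it kept its call in 4 of 19 alternatives. For Tnfaip3, whose effect was smaller in depleted organoids, it was -0.56 (adjusted p = 0.0224), a call lost without control replicate 1 or 2. Nfkbib (0.37) and Birc2 (0.34) also had a larger effect in depleted organoids, and Rnf31 had a positive difference (0.48) where its change in depleted organoids did not pass. Bcl3 had a smaller effect, by -1.16 (adjusted p = 0.00641), with 16.4, 17.8 and 17.5 CPM in non-depleted organoids with TNF and 1.204, 1.56 and 1.501 CPM in those without it. By list, 4 of 11 inhibitor genes had a higher effect and 1 a lower one. For the subunit list it was 2 and 1 of 6, and for the proximal list 5 and 1 of 24. Members not named above were Zc3h12a, Relb, Nfkb2, Birc3, Tradd and Rbck1 with a higher effect and Ikbkg with a lower one. Of all genes tested, 7.54% had a higher and 4.81% a lower TNF effect in depleted organoids.

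Most chemokine genes that were tested rose. Ccl2, which attracts monocytes, had 64.2, 73.4 and 55.7 CPM with TNF, against 0.832, 2.01 and 1.47 CPM without it (5.49 ± 0.36, SE). Cxcl16 had 54.9, 55.7 and 65.4 CPM with TNF, against 0.780, 1.67 and 1.47 CPM without it (5.50 ± 0.22), and the membrane-bound chemokine Cx3cl1 had 113, 108 and 123.2 CPM with TNF, against 13.2, 15.3 and 17.2 CPM without it (2.92 ± 0.09). In each, every library with TNF was several times above every library without it. Cxcl10, a ligand of the receptor CXCR3 shown above with its promoter and chosen after values were seen, had 53.9, 81.8 and 45.6 CPM with TNF, against 0.598, 0.334 and 0.118 CPM without it. Its log2 fold change was 7.38, or 8.02 without KD replicate 1. Cxcl9, another CXCR3 ligand, had 3.37, 3.95 and 2.51 CPM with TNF and a single count over the 3 libraries without it, a ratio of 354 (95% interval from the counts alone, 63.2 to 14034). Ccl5 likewise had 5.48, 6.81 and 2.69 CPM with TNF and a single count without it, a ratio of 541 (96.7 to 21396). Ccl7 rose by 4.47 on the log2 scale.

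The fall of 2 CXC chemokines stood against these. Cxcl12 had 1.52, 1.49 and 1.51 CPM with TNF, against 3.43, 3.901 and 5.43 CPM without it (-1.49), and Cxcl14 had 10.6, 12.9 and 8.08 CPM with TNF, against 16.9, 15.995 and 18.3 CPM without it (-0.70), both chosen after values were seen. So of 9 tested CXC and CX3C genes 7 rose and 2 fell (median 3.95), and Cxcl9 and Cxcl13 passed the filter only through the libraries with TNF, which leaves 5 rises among the other 7. Of 7 tested CC genes 5 rose and none fell (median 4.47). Of the exon bases of Cxcl16, 20.5% overlap Zmynd15 on the opposite strand.

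Other cytokines showed a mixed picture. Ltb, which encodes a lymphotoxin of the TNF family, had 6.23, 5.03 and 6.55 CPM with TNF, against 0.0780, 0.111 and 0 CPM without it (6.45, or 7.05 without KD replicate 2). Tnfsf10, the death ligand TRAIL, had 6.18, 4.73 and 7.98 CPM with TNF, against 0.130, 0.251 and 0.383 CPM without it (4.63). Csf1, the macrophage growth factor, had 241, 217 and 235 CPM with TNF, against 18.4, 29.4 and 33.9 CPM without it (3.09) and was chosen after values were seen. The libraries of the 2 groups were separate in all of these. Tgfb2, a growth factor of the TGF-β family, fell by 0.56. Of 15 tested members 9 rose and 1 fell (median 1.09), and 1 of the rises, Tnfsf11, passed the filter only through the libraries with TNF. The lower count was 2 without KD_TNF replicate 2.

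Adhesion molecules for leukocytes rose with the chemokines. Icam1 had 147, 145 and 149.8 CPM with TNF, against 3.85, 3.98 and 6.31 CPM without it (4.97 ± 0.15, SE). Madcam1, a ligand of the integrin of gut-homing lymphocytes, had 52.5, 55.8 and 43.0 CPM with TNF, against 0.0260, 0.0279 and 0.177 CPM without it (9.35, or 10.70 without KD replicate 3). Vcam1, chosen after values were seen, had 120.4, 127 and 106 CPM with TNF, against 17.4, 16.7 and 22.4 CPM without it (2.65). In all 3 genes every library with TNF was several times above every library without it. Jam2, a junctional adhesion molecule, fell by 1.02. Of 7 tested members 6 rose and 1 fell (median 1.602). Of the exon bases of Icam1, 20.2% overlap a gene on the opposite strand.

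Complement and acute phase genes held some of the largest changes. C3, the central complement component, had 416, 354 and 448 CPM with TNF, against 0.104, 0.307 and 0.442 CPM without it (10.50 ± 0.48, SE). C1s1, the serine protease of the classical pathway, had 80.2, 92.5 and 75.1 CPM with TNF, against 6.87, 9.36 and 9.91 CPM without it (3.25). C2 rose by 2.46, with 59.2% of its exon bases shared with another gene on the same strand. No member fell, and 8 of 11 tested rose (median 1.49). Lcn2, an iron-scavenging lipocalin, had 172, 107 and 268 CPM with TNF, against 1.07, 1.14 and 1.504 CPM without it (7.21). Saa3, a serum amyloid, had 15.9, 21.1 and 8.51 CPM with TNF and 0 counts without it, at least 548-fold higher. Fth1, the ferritin heavy chain, had 716, 723 and 718 CPM with TNF, against 356, 395 and 399.8 CPM without it (0.91). For Lcn2 and Saa3 the 3 libraries with TNF spread over more than 2-fold, and for Fth1 they were tight. Of 11 tested acute phase and iron genes 9 rose and none fell (median 1.959), and 8 of 10 without Hp, which passed the filter only through the libraries with TNF.

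**Figure D2:**
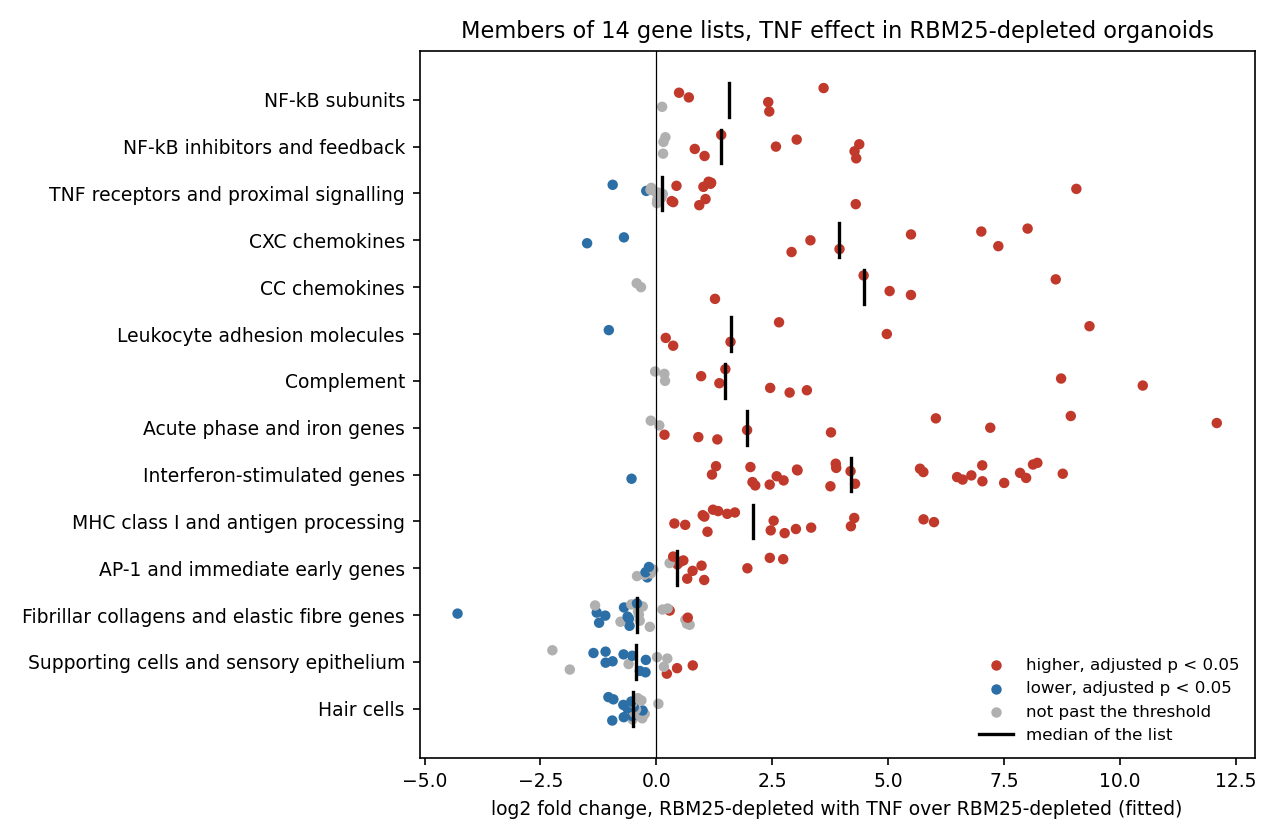
Log2 fold change of depleted organoids with TNF over those without it for the tested members of the gene lists, 1 point per gene, for 14 of the lists, with the median of each list as a black bar and fitted values that depend on the prior count for genes with almost no counts without TNF. The interferon-stimulated list, in which 10 of 29 members passed the filter only through the libraries with TNF, has its median at 4.19 and the class I list at 2.08, and the hair cell list has its median at -0.50.

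Nearly all interferon-stimulated genes that were tested rose. Of 29 tested members 28 rose and 1 fell, with a median log2 fold change of 4.19, against -0.013 over all genes. Of these, 10 passed the filter only through the libraries with TNF, and of the other 19 members 18 rose and 1 fell (median 3.04). Ddx58, the RNA sensor RIG-I, had 156, 148 and 156 CPM with TNF, against 32.7, 37.8 and 34.4 CPM without it (2.13 ± 0.06, SE). Rtp4 had 76.6, 80.4 and 79.6 CPM with TNF, against 4.71, 5.29 and 6.08 CPM without it (3.88). No library with TNF overlapped one without it in either gene. Of the exon bases of Rtp4, 15.2% are shared with another gene on the same strand.

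The largest fitted steps were in members with almost no reads without TNF, where a base near 0 itself makes the ratio large. Ifit3 had 27.7, 26.3 and 25.6 CPM with TNF, against 0.0780, 0.111 and 0.118 CPM without it (7.98 ± 0.28, SE). Irf7, the regulator of interferon genes, had 36, 43.7 and 29.3 CPM with TNF, against 0.312, 0.446 and 0.206 CPM without it (6.80). Isg15 had 19.9, 19.2 and 13.8 CPM with TNF, against 0, 0.0557 and 0.0590 CPM without it (8.77, or 8.18 without KD replicate 1). Isg15 passed the filter only through the libraries with TNF, which favours genes that are high there. Irf7 and Isg15 were chosen after values were seen, as were the members named next. Ifit1 had 28.9, 28.9 and 27.2 CPM with TNF, against 0.156, 0.446 and 0.265 CPM without it (6.61), and Bst2, the surface protein tetherin, had 203.6, 199.5 and 211 CPM with TNF, against 13.996, 14.1 and 17.5 CPM without it (3.76). All of these genes were near 0 or low in every library without TNF and well above in every library with it. Irf1, which responds directly to NF-κB, rose by 2.60, Stat2 by 1.29 and Irf9 by 1.202. The single fall was Ifit2, at 12.9, 13.8 and 12.4 CPM with TNF, against 16.4, 19.4 and 20.9 CPM without it (-0.53, adjusted p = 0.0417), a call lost without KD_TNF replicate 1, 2 or 3 or KD replicate 2 or 3.

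The interferon genes Ifnb1, Ifnl2 and Ifng were hardly read. Ifnb1 had 0, 0.0811 and 0 CPM and Ifnl2 0, 0.0270 and 0 CPM in the libraries with TNF, both had 0 counts without TNF, and Ifng had 0 counts in all 6 libraries. At this depth these 3 genes were not detectable in depleted organoids beyond a few counts in 1 library.

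The TNF effect on many of these genes was larger in depleted than in non-depleted organoids. Of the 19 that passed the filter without the depleted libraries with TNF, 16 had a larger effect in depleted organoids and none a smaller one, beside 7.54% and 4.81% of all genes. Leaving out KD replicate 1 gave 1 member of the list with a smaller effect. Over these 19 there were 18 rises and 1 fall in depleted organoids and 14 rises and 2 falls in non-depleted organoids, with medians of 3.04 and 1.39. Ifit3 stood at 1.43, 1.12 and 1.17 CPM in non-depleted organoids with TNF and at 0.0860, 0.491 and 0.177 CPM without it, a difference of effects of 5.69 (adjusted p = 6.1e-06), or 4.77 without control replicate 2. Irf7 differed by 5.41 (or 6.21 without TNF replicate 1), and Ifit1 by 4.14.

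Stat2 and Irf9, transcription factors of interferon signalling, rose in depleted organoids, while in non-depleted organoids Stat2 fell by 0.20 and Irf9 had a log2 fold change of 0.03 (adjusted p = 0.828). Stat2 stood at 52.7, 46.5 and 54.8 CPM with TNF, against 21.0, 23.2 and 18.8 CPM without it, and at 27.6, 26.1 and 30.0 CPM in non-depleted organoids with TNF and 32.7, 31.1 and 32.5 CPM without it. The effects differed by 1.49 ± 0.11 (SE, adjusted p = 1.42e-07) for Stat2 and by 1.18 ± 0.12 (adjusted p = 1.24e-05) for Irf9. Both genes averaged more in depleted than in non-depleted organoids with TNF, and less without it. Usp18, the protease that removes ISG15 (chromosome 6, 121245906 to 121270917), had 5.59, 6.33 and 6.52 CPM with TNF and 2 counts over the libraries without it, a ratio of 333 (91.7 to 2751), against 0.248, 0.224 and 0.0556 CPM in non-depleted organoids with TNF and 0.0860, 0.0289 and 0.0294 CPM without it. Its effects differed by 6.34 (adjusted p = 0.00177), or 5.67 without control replicate 1. Usp18 and Oas1g passed the filter only through the depleted libraries with TNF, which favours genes that are high there, so their differences are not independent of the filter. Oas1g had 2.41, 2.97 and 1.78 CPM with TNF and 3 counts without it, a ratio of 86.1 (29.1 to 420), and 2 counts over the 3 non-depleted libraries with TNF and 7 over the 3 without it (difference 7.95, adjusted p = 0.000796). This difference was 10.61 without TNF replicate 3, 8.83 without KD replicate 3 and 7.35 without control replicate 2. The depleted organoids carry lentivirus and the labels name no vector for the non-depleted ones, so viral transduction and RBM25 depletion cannot be told apart in these differences.

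**Figure D3:**
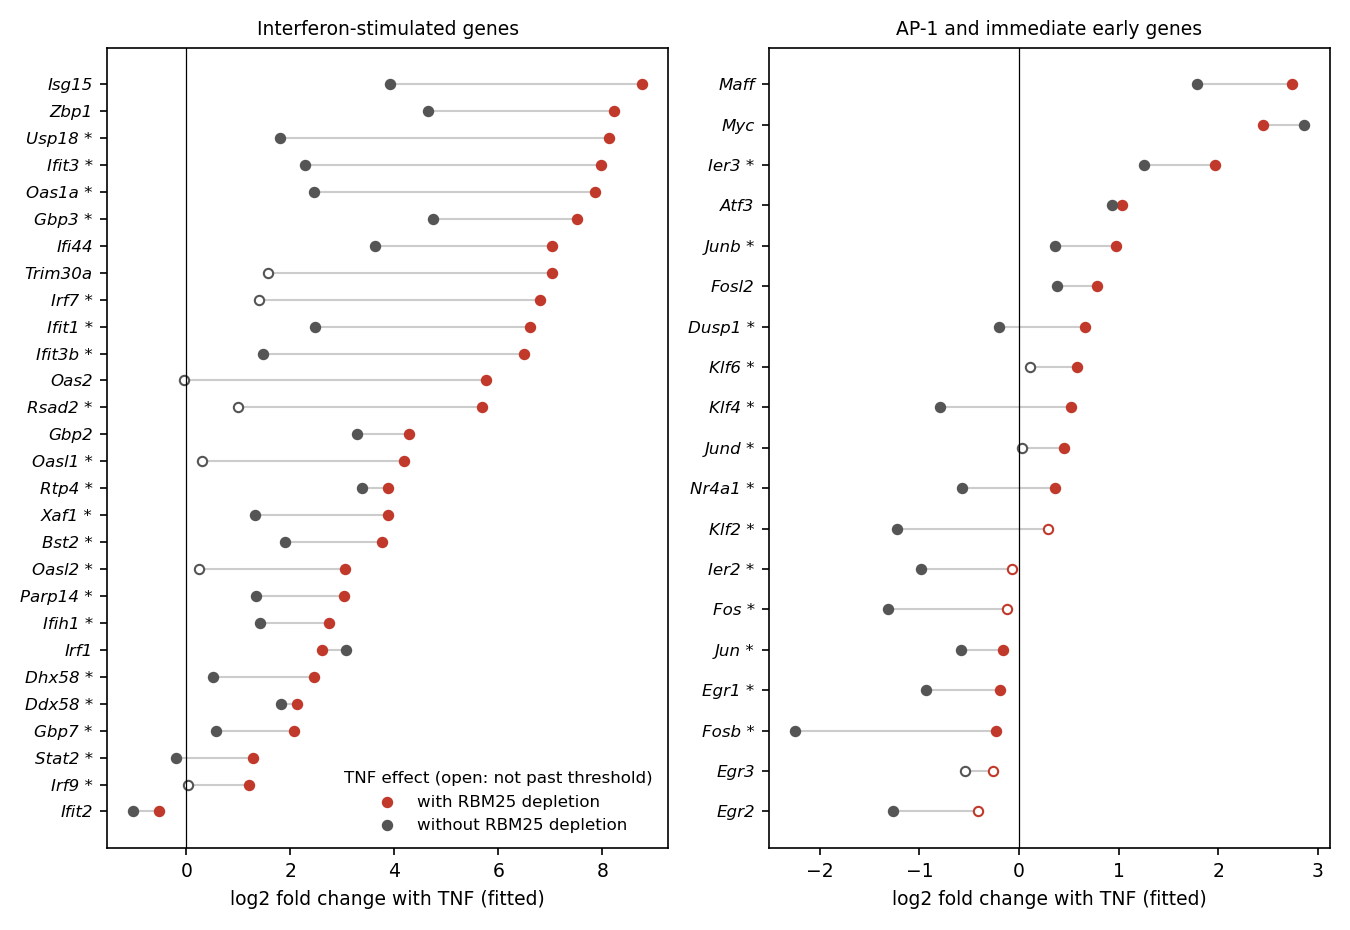
TNF effect as a log2 fold change in depleted organoids and in non-depleted organoids for 28 of the 29 tested members of the interferon-stimulated list and the tested members of the AP-1 and immediate early list, with the depleted effect in red, the non-depleted effect in grey, open points not past the threshold, and an asterisk where the difference passed. The median of the interferon list is 3.04 in depleted and 1.39 in non-depleted organoids over the 19 members that passed the filter without the depleted libraries with TNF, and that of the AP-1 list 0.46 and -0.55.

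Antigen presentation genes rose without exception among those tested. H2-K1, a classical class I heavy chain, had 763, 757 and 763 CPM with TNF, against 94.1, 97.8 and 91.0 CPM without it (3.01 ± 0.05, SE). H2-Q4 had 145, 139 and 145 CPM with TNF, against 8.72, 7.69 and 6.90 CPM without it (4.20 ± 0.07), and H2-D1 had 613, 604 and 614 CPM with TNF, against 101, 114 and 116 CPM without it (2.47 ± 0.06). B2m, the shared light chain, had 589, 632 and 550.4 CPM with TNF, against 73.5, 92.2 and 94.2 CPM without it (2.77) and was chosen after values were seen. The groups did not overlap in any of them. All 18 tested members of the class I list rose (median 2.08), 17 of them without relying on the libraries with TNF to pass the filter. Of the 18, 7 had a larger effect in depleted organoids and none a smaller one, H2-Q4 by 0.68 and H2-K1 by 0.38. Class I genes resemble each other closely, so how their reads were divided between them is uncertain, and 21.0% of the exon bases of H2-Q4 overlap a gene on the opposite strand.

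Class II genes, chosen after values were seen because 2 of them are among the 10 largest increases, rose as well. Cd74, the invariant chain (chromosome 18), had 591, 492 and 676 CPM with TNF, against 0.182, 0.557 and 0.501 CPM without it (10.48 ± 0.21, SE). H2-Aa had 55.7, 42.8 and 63.7 CPM with TNF and 2 counts over the libraries without it, a ratio of 2927 (810 to 24171). H2-Ab1 rose by 4.31 and H2-Eb1 by 7.90, and the class II transactivator Ciita had 5.19, 3.65 and 6.90 CPM with TNF, against 0.364, 0.139 and 0.472 CPM without it (4.003). The peptide loading genes H2-DMa (1.06) and H2-DMb1 (1.15) rose by less. H2-DMb2, H2-Oa and H2-Ob stayed under the filter on low counts and so were not tested.

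Immune cell markers are given beside these genes. Of the 19 macrophage and monocyte markers 14 were in the table and 4 were tested, of which 3 rose, 1 of them (Mpeg1) through the libraries with TNF alone (median 5.19, or 4.62 with low-count genes at their bounds). Aif1 had 8.53, 7.68 and 9.62 CPM with TNF, against 0.104, 0.0836 and 0 CPM without it (6.99), Cd14 had 1.74, 1.43 and 2.24 CPM with TNF, against 0.0260, 0.0279 and 0.147 CPM without it (4.72, or 5.89 without KD replicate 3), and Mpeg1 had 0.508, 0.703 and 0.701 CPM with TNF and 1 count without it, a ratio of 68.9 (12.0 to 2760). The summed level of the list was 13.3, 11.6 and 14.3 CPM with TNF and 1.87, 1.89 and 1.42 CPM without it. The defining genes Ptprc and Itgam had 0 counts in all 6 libraries, and Csf1r, Trem2 and Lyve1 were below 0.03 CPM on average in both groups. For T and NK cells 2 of 9 markers in the table were tested and neither passed, with sums of 3.29, 3.95 and 3.48 CPM with TNF and 2.89, 4.43 and 4.48 CPM without it. Their part in the rise of the interferon and class II genes was not tested. In bulk RNA a change in the share of a cell type and a change in RNA per cell cannot be told apart.

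The immediate early genes were split in depleted organoids. Of 19 tested members of the AP-1 list 11 rose and 3 fell (median 0.46). Junb had 445, 428 and 447 CPM with TNF, against 205, 225 and 241 CPM without it (0.98 ± 0.06, SE), and Dusp1, a MAP kinase phosphatase, had 55.9, 57.1 and 61.6 CPM with TNF, against 37.5, 37.5 and 34.8 CPM without it (0.67 ± 0.06). Myc had 13.1, 12.9 and 15.0 CPM with TNF, against 2.26, 2.42 and 2.83 CPM without it (2.45 ± 0.13). The groups of these 3 genes were separate. The falls were small: Fosb (-0.23), Egr1 (-0.19) and Jun (-0.16). Of these 3 falls none was called without KD_TNF replicate 2 and 1 was called without KD_TNF replicate 3, KD replicate 2 or KD replicate 3. Fos had 591, 591 and 584 CPM with TNF, against 588, 659 and 674 CPM without it, with overlapping groups and a log2 fold change of -0.12 (adjusted p = 0.154).

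In non-depleted organoids the same list behaved otherwise, with 6 rises and 10 falls (median -0.55). Fos stood at 191, 237 and 209 CPM in non-depleted organoids with TNF and at 519.9, 543 and 525 CPM without it. Fosb stood at 40.4, 52.8 and 39.5 CPM in non-depleted organoids with TNF and at 213, 206 and 213 CPM without it. The effects differed by 1.198 ± 0.10 for Fos (SE, adjusted p = 2.41e-07) and by 2.02 ± 0.12 for Fosb (adjusted p = 1.47e-07), with falls of 1.32 and 2.25 in non-depleted organoids. Egr1 (0.74), Dusp1 (0.87), Junb (0.62) and Jun (0.42) differed in the same direction. Of the 19 members 13 had a higher effect in depleted organoids and none a lower one. Fos, Fosb, Jun and Egr1 were chosen after values were seen.

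Cell cycle genes mostly did not pass. Cdkn1a, the inhibitor p21, had 160.3, 162 and 163 CPM with TNF, against 64.2, 56.8 and 57.4 CPM without it (1.44 ± 0.07, SE), and Cdkn2b, the inhibitor p15, had 17.9, 15.7 and 18.8 CPM with TNF, against 5.18, 5.27 and 5.10 CPM without it (1.75 ± 0.10). Cdc20, an activator of the anaphase-promoting complex, had 13.1, 11.9 and 13.8 CPM with TNF, against 27.1, 29.1 and 34.8 CPM without it (-1.23 ± 0.10). All 3 had separate groups. Ccnd1, cyclin D1, rose by 2.26 and was chosen after values were seen. Of 25 tested members 4 rose and 2 fell (median 0.07), and 1 fell without KD_TNF replicate 1 or without KD replicate 1.

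Cell death genes rose more often than they fell. Bid, which links death receptors to mitochondria, had 28.9, 25.6 and 30.8 CPM with TNF, against 7.28, 8.25 and 8.94 CPM without it (1.80), Bax had 94.0, 90.9 and 98.5 CPM with TNF, against 56.6, 57.7 and 55.5 CPM without it (0.74), and Bbc3 had 11.5, 10.1 and 11.9 CPM with TNF, against 3.36, 3.01 and 4.01 CPM without it (1.69). No library with TNF overlapped one without it. Of 21 tested members of the apoptosis and survival list 10 rose, 3 fell and 8 did not pass (median 0.17). In the necroptosis and pyroptosis list 7 of 10 tested rose and none fell (median 1.37), and Ripk3 and Zbp1 passed the filter only through the libraries with TNF. Gsdmd, the pore-forming gasdermin D, had 9.04, 10.3 and 8.11 CPM with TNF, against 2.68, 2.90 and 3.83 CPM without it (1.55). Casp4, the caspase that senses lipopolysaccharide, had 2.30, 2.62 and 1.91 CPM with TNF and 3 counts without it, a ratio of 82.2 (27.8 to 401), and the nucleic acid sensor Zbp1 had 6.39, 8.38 and 4.90 CPM and 2 counts, a ratio of 355 (97.9 to 2936).

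Redox, prostaglandin and sterol genes that were called mostly rose. Of 19 tested antioxidant and nitric oxide genes 11 rose and 2 fell (median 0.34). The list does not hold the nitric oxide synthase gene Nos1, which fell and is given below. Slc7a11, the cystine transporter, had 6.18, 5.90 and 5.33 CPM with TNF, against 0.286, 0.864 and 1.27 CPM without it (2.86 ± 0.45, SE). Gpx4, which reduces lipid peroxides, rose by 0.59 and Txnrd1, thioredoxin reductase, by 0.44. Sod3, the extracellular superoxide dismutase, fell to 146, 127 and 148 CPM with TNF, against 302, 369 and 361 CPM without it (-1.29). Sod3 stood at 9.13, 6.99 and 7.81 CPM in non-depleted organoids with TNF and at 42.3, 42.4 and 45.1 CPM without it, so its fall was smaller in depleted organoids, by 1.15 ± 0.14 (SE, adjusted p = 0.000141). Of 12 tested prostaglandin genes 8 rose and none fell (median 0.65), or 6 of 10 without Ptgs2 and Ptgis, which passed the filter only through the libraries with TNF. Without KD replicate 1, 1 member fell. Ptgs2, the inducible cyclooxygenase, had 4.79, 9.63 and 1.67 CPM with TNF, against 0.0520, 0.195 and 0.177 CPM without it (5.23), with replicates with TNF far apart. Ptges, prostaglandin E synthase, had 16.7, 17.7 and 16.8 CPM with TNF, against 4.81, 7.94 and 7.08 CPM without it (1.37), and Ptgds and Hpgd rose by 0.95 and 0.79.

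Of 20 tested cholesterol synthesis genes 13 rose and none fell (median 0.30), with 1 fall without KD_TNF replicate 3 or without KD replicate 1. Hmgcs1, which makes the precursor of mevalonate, had 126, 147 and 134 CPM with TNF, against 97.6, 103 and 105 CPM without it (0.42), and Sc5d, a late sterol desaturase, had 58.3, 58.6 and 60.2 CPM with TNF, against 40.8, 44.98 and 44.0 CPM without it (0.45). For both, groups were separate but close. Fdps rose by 0.67, with 77.4% of its exon bases shared with another gene on the same strand. The effect of Sc5d was smaller in depleted than in non-depleted organoids (-0.34, adjusted p = 0.00435).

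Matrix genes fell more often than they rose. Fbln2, a fibulin of elastic fibres and basement membranes (chromosome 6, 91212460 to 91272540), fell to 22.1, 21.2 and 19.2 CPM with TNF, against 394, 405 and 423 CPM without it. Its log2 fold change was -4.29 ± 0.09 (SE, adjusted p = 2.32e-14), and no library with TNF came near one without it. Loxl1, which crosslinks elastin, fell by 0.70 and the fibulin Efemp2 by 0.62. Of 24 tested collagen and elastic fibre genes 2 rose and 9 fell (median -0.41). The 2 rises, Fbn2 and Efemp1, are weak: none was called without KD_TNF replicate 1 or 2 or KD replicate 1 or 2, and 1 was called without KD replicate 3. Col1a1 had 133, 158 and 61.9 CPM with TNF, against 29.6, 87.5 and 97.5 CPM without it, with overlapping groups.

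Proteases of the matrix went both ways. Mmp9, gelatinase B, had 19.8, 23.2 and 15.8 CPM with TNF, against 0.0780, 0.251 and 0.442 CPM without it (6.27, or 6.89 without KD replicate 3). Mmp7, matrilysin, had 1.23, 0.892 and 1.51 CPM with TNF and 0 counts without it, at least 43.7-fold higher. Adamts1 had 37.4, 34.6 and 39.3 CPM with TNF, against 11.8, 11.5 and 15.7 CPM without it (1.51). Of 19 tested members 6 rose and 8 fell (median -0.13), or 4 and 8 of 17 without Mmp3 and Mmp7, which passed the filter only through the libraries with TNF. Without KD replicate 1, 5 fell. Among the IGF genes none of 8 tested rose and 3 fell (median -0.26). Of the falls, that of Igfbp6 (-1.37) lost its call with DESeq2 and without KD_TNF replicate 1 or 3 or KD replicate 2 or 3. Igfbp5, the gene with the highest share of counts in these 6 libraries, had 15190.3, 14693 and 15146 CPM with TNF, against 22278, 23123 and 23064 CPM without it (-0.60), and Igf1 had 33.6, 49.0 and 34.3 CPM with TNF, against 51.8, 66.3 and 62.9 CPM without it (-0.63).

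Many genes of the sensory epithelium fell. Otoa, which encodes otoancorin and anchors the overlying gel to the epithelium, had 1569, 1542 and 1500.5 CPM with TNF, against 3011, 3368 and 3458 CPM without it (-1.09 ± 0.06, SE). Otog, which encodes otogelin of the tectorial membrane, had 1464, 1354 and 1313 CPM with TNF, against 2815, 2558 and 2575 CPM without it (-0.94 ± 0.07), and Tecta, which encodes its protein α-tectorin and was chosen after values were seen, had 1458, 1329 and 1498 CPM with TNF, against 2808, 3256 and 3085 CPM without it (-1.09). Sox2, the transcription factor of prosensory and supporting cells, had 40.1, 44.5 and 39.6 CPM with TNF, against 68.4, 70.3 and 63.8 CPM without it (-0.71 ± 0.07). Every library with TNF was below every library without it in all 4 genes. Of 18 tested supporting cell and sensory epithelium markers 3 rose and 9 fell (median -0.44), and the summed level of the list was 7323, 7068 and 7266 CPM with TNF and 11877, 12423 and 12319.5 CPM without it. The fall of Otog was smaller in depleted organoids, by 0.79 (adjusted p = 6.97e-05).

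Hair cell markers fell in part. Of 22 tested, none rose and 11 fell (median -0.50). Atoh1, the transcription factor that starts hair cell development, had 3.24, 3.65 and 3.23 CPM with TNF, against 8.98, 4.57 and 5.99 CPM without it (-0.95, adjusted p = 0.000744). Pcdh15, a tip link protein, had 35.4, 37.6 and 33.7 CPM with TNF, against 54.9, 49.9 and 44.5 CPM without it (-0.49 ± 0.07, adjusted p = 1.3e-05). Strc, stereocilin, had 4.84, 4.002 and 3.07 CPM with TNF, against 10.02, 7.02 and 5.57 CPM without it (-0.93, adjusted p = 0.00198). The groups of all 3 genes were separate. The summed level of the 24 markers was 765, 832 and 662 CPM with TNF and 1312, 924 and 918 CPM without it, and KD replicate 1 stood above all others. Without KD_TNF replicate 3 the count was 7. Pou4f3, a hair cell survival factor, had 13.3, 15.5 and 10.1 CPM with TNF, against 24.6, 15.0 and 17.0 CPM without it (-0.54, adjusted p = 0.0286), with overlapping groups, and its call was lost without KD_TNF replicate 1 (adjusted p = 0.0601), KD_TNF replicate 3 (0.0963) or KD replicate 1 (0.121). In non-depleted organoids 1 of the 22 fell, and the effects differed past the threshold for Pcdh15 and Ptprq. Pcdh15 stood at 65.5, 73.0 and 72.7 CPM in non-depleted organoids with TNF and 65.1, 66.3 and 64.2 CPM without it (difference -0.60 ± 0.10, SE, adjusted p = 0.000555). For Ptprq the difference was -1.02 (adjusted p = 0.0327). Only 1 gene passed instead of these 2 when KD_TNF replicate 1 or any 1 of the non-depleted libraries was left out.

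**Figure D4:**
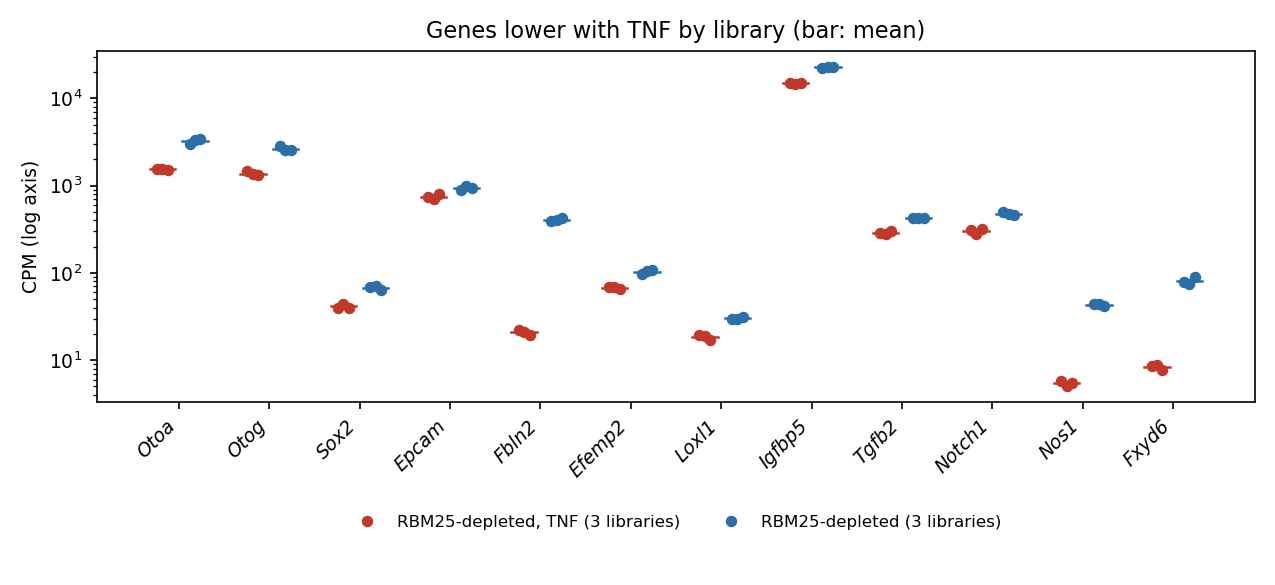
Levels of 12 genes that fell with TNF in depleted organoids, in CPM on a log axis, with 1 point per library, a bar at each mean, and the libraries with TNF (red) left of those without it (blue). No gene has overlapping groups, and Fbln2 has 19.2 to 22.1 CPM with TNF and 394 to 423 CPM without it.

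Wnt targets that were called mostly rose, and the Notch list was called no more often than all genes. Of 15 tested Notch pathway genes 3 rose and 3 fell (median -0.05). The receptors Notch1 and Notch3 fell by 0.66 and 0.64 on the log2 scale, and Lfng, which glycosylates Notch, rose by 0.79. All organoids had been cultured with a Notch pathway inhibitor. Of 17 tested Wnt targets and Lgr receptors 12 rose and 1 fell (median 0.44), all of them among the 16 that passed the filter without the libraries with TNF, and without KD replicate 2 there were 2 falls. Rspo1, a secreted ligand of the Lgr receptors, had 67.7, 58.6 and 76.4 CPM with TNF, against 0.0260, 0.111 and 0.0885 CPM without it (9.77 ± 0.25, SE). Notum, a Wnt deacylase, had 2.46, 3.06 and 1.94 CPM with TNF, against 0.416, 0.279 and 0.619 CPM without it (2.50). Sp5, a target of β-catenin, had 18.5, 16.7 and 20.3 CPM with TNF, against 6.66, 4.63 and 5.04 CPM without it (1.76 ± 0.13). All 3 had separate groups. Sp5 stood at 18.8, 20.6 and 24.1 CPM in non-depleted organoids with TNF and at 15.6, 14.8 and 15.5 CPM without it, and its effect was larger in depleted organoids by 1.29 ± 0.17 (adjusted p = 9.56e-05). Of the exon bases of Notum, 29.0% overlap a gene on the opposite strand, as do 32.8% of those of Nefl, 21.9% of those of Ccnd1, 19.3% of those of C1s1 and 14.8% of those of Nfkbib, and 22.1% of those of Bax overlap a gene on the same strand.

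Summed markers of other cell types overlapped between libraries with TNF and without it for the mesenchymal, endothelial and muscle lists. For the Schwann and glial, neuronal, melanocyte and cartilage lists every library with TNF lay below every one without it, and the part of these shifts in the other results was not tested. Of 14 tested mesenchymal and fibroblast markers 2 rose and 1 fell, with sums of 869, 1063 and 744 CPM with TNF and 923, 940.0 and 1105 CPM without it. Prrx1 and Runx2 rose by 1.10 and 1.93, and Dcn fell by 0.59. There were 2 falls without KD_TNF replicate 2 and 3 without KD replicate 2. None of 6 tested endothelial markers passed, and their sums were 40.6, 49.0 and 34.6 CPM with TNF and 40.0, 40.9 and 53.1 CPM without it. Of 10 tested Schwann and glial markers 1 rose (Ngfr, 2.47) and 2 fell (S100b, -0.70, and Prx, -0.36), with sums of 936, 868 and 951 CPM and 989.9, 979 and 979 CPM.

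Of 8 tested neuronal markers Syt1 rose (2.77) and Nefl (-0.63) and Map2 (-0.36) fell, with 4 falls without KD replicate 3, and their sums were 213, 226 and 218 CPM with TNF and 281, 253 and 249 CPM without it. Of 4 tested melanocyte and intermediate cell markers Kcnj10 alone fell (-0.60), with 2 falls without KD_TNF replicate 1 or KD replicate 2. Their sums were 175, 154 and 168 CPM with TNF and 250.4, 247 and 236 CPM without it. Neither of 2 tested muscle markers passed, with sums of 1.39, 1.08 and 1.21 CPM with TNF and 1.01, 1.31 and 1.62 CPM without it. Of 8 tested cartilage and bone markers 3 rose and 4 fell (median 0.23, or -0.53 over the 6 that passed the filter without the libraries with TNF, with 1 rise and 4 falls). When any 1 of the KD replicates was left out, 1 rose, and without KD_TNF replicate 2 there were 2 falls. Col9a1 fell to 403, 414 and 378 CPM with TNF, against 753, 662 and 804 CPM without it (-0.89), and the list summed to 829, 861 and 773 CPM with TNF and 1503, 1112 and 1319 CPM without it. Of 11 genes for RBM25 and its U1 partners 3 rose and 2 fell, and 1 fell without KD_TNF replicate 1 or 3 or KD replicate 2. Snrpa and Snrpc, proteins of the U1 particle, rose by 0.19 and 0.25.

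By size, changes were ranked among genes, predicted ones aside, that passed the test, averaged at least 1 CPM in the higher group and had separate groups. By fitted log2 fold change the 10 highest of these were Saa3, Ibsp, H2-Aa, H2-M2, C3, Cd74, Rspo1, Ces2c, Madcam1 and Tnf. Saa3, H2-M2, Ces2c and Tnf had 0 counts without TNF, and Ibsp and H2-Aa almost none. Their fitted sizes depend on the prior count, so their ranks are not settled. H2-M2, a non-classical class I gene, had 6.95, 6.76 and 6.90 CPM with TNF and 0 counts without it, at least 248-fold higher. Ces2c, a carboxylesterase, had 2.41, 2.38 and 2.21 CPM with TNF and 0 counts without it, at least 84.1-fold higher. In both genes the 3 libraries with TNF were nearly alike. Ibsp, the bone sialoprotein gene, was unlike them, with 52.7, 98 and 0.458 CPM with TNF and a single count over the libraries without it. Its replicate 3 with TNF lay far below the other 2, and its call was lost without any 1 of the KD replicates, with adjusted p-values of 0.0567 to 0.0973. The call was also lost with only the libraries compared (adjusted p = 0.0632). Ibsp passed the filter only through the libraries with TNF, which favours genes that are high there.

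The 10 lowest by the same rule were Cilp, Fbln2, Kcnt1, Matn1, Shisa8, Sorcs3, Fxyd6, Nos1, Kcna1 and Upk1b. Cilp, a cartilage matrix protein, had 0.0267, 0 and 0.108 CPM with TNF, against 1.48, 1.89 and 1.80 CPM without it (-5.16, or -6.67 without KD_TNF replicate 3). Kcnt1, a sodium-activated potassium channel, had 0.749, 0.703 and 0.458 CPM with TNF, against 7.80, 9.78 and 9.82 CPM without it (-3.83 ± 0.29, SE). Nos1, the neuronal nitric oxide synthase, had 5.83, 5.06 and 5.44 CPM with TNF, against 44.4, 44.2 and 41.5 CPM without it (-2.99 ± 0.11). These groups were far apart in every library. Shisa8, an AMPA receptor auxiliary protein, had 0.562, 0.649 and 0.889 CPM with TNF, against 7.08, 8.11 and 7.40 CPM without it (-3.42), and Sorcs3, a sortilin-family receptor, had 0.562, 0.243 and 0.350 CPM with TNF, against 3.98, 4.37 and 4.07 CPM without it (-3.41). Fxyd6, a regulator of the sodium pump, had 8.67, 8.87 and 7.68 CPM with TNF, against 78.7, 75.5 and 90.7 CPM without it (-3.28). Matn1 (-3.81), Kcna1 (-2.96) and Upk1b (-2.83) fell too, and averaged 1.55, 1.63 and 10.7 CPM without TNF.

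Across all genes the TNF effects in depleted and in non-depleted organoids, which share no library, had a Pearson correlation of 0.789 over 15888 genes, given as a description since genes share library depth and composition. In non-depleted organoids 3706 genes rose and 3840 fell (23.3% and 24.2%, 47.5% in all). Called in both with the same sign were 4813 genes, 67.6% of those called in depleted organoids and 63.8% of those called in non-depleted ones, and 181 were called in both with opposite signs. The difference itself passed for 1962 genes (12.3%), 1198 with a higher and 764 with a lower effect in depleted organoids. Without KD replicate 1 and TNF replicate 1 these counts were 982 and 961. The lower count was 487 without KD_TNF replicate 1, 509 without KD_TNF replicate 3, 484 without KD replicate 2, 440 without control replicate 1 and 481 without control replicate 2, and the higher count was 794 without control replicate 1.

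**Figure D5:**
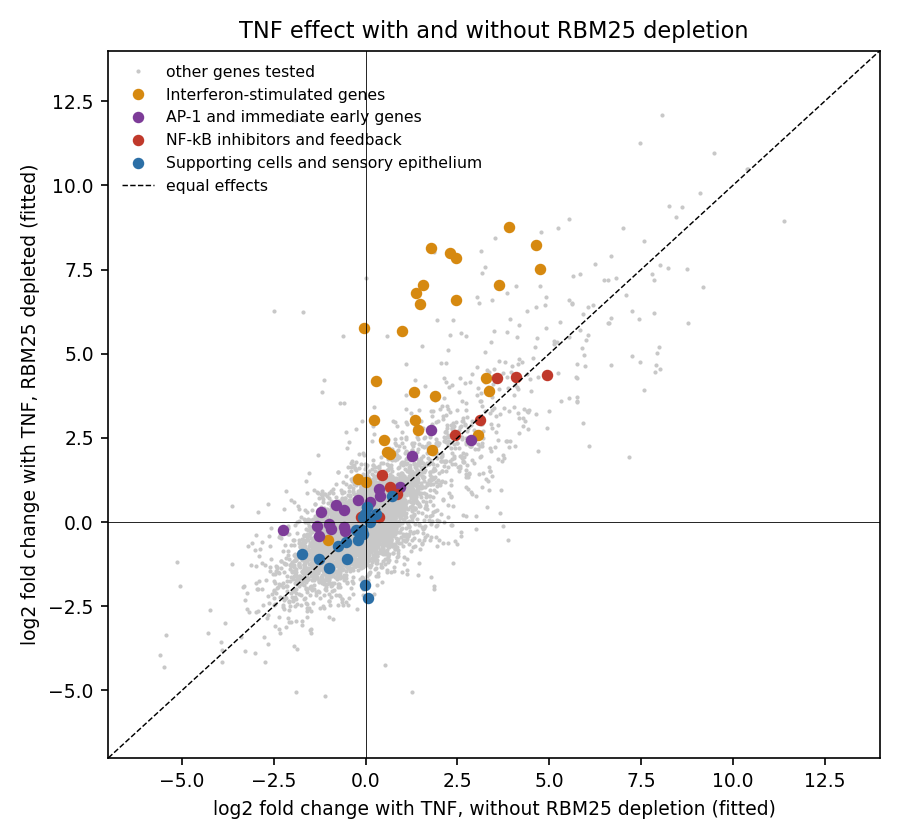
TNF effect in depleted organoids (vertical) against that in non-depleted organoids (horizontal), both as log2 fold changes, 1 grey point per tested gene, with 4 lists in colour and a dashed line where both effects are equal. Interferon-stimulated genes (orange) have medians of 3.04 in depleted and 1.39 in non-depleted organoids over the 19 members that passed the filter without the depleted libraries with TNF, of which 16 had a larger effect in depleted organoids.

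Differences of effects were ranked among those that passed the test in genes, predicted ones aside, averaging at least 1 CPM in some group. Among the 5 highest, next to Oas1g, Usp18 and Ifit3, were Cyp1a1 and Gpnmb. Gpnmb, a transmembrane glycoprotein of lysosomes, had 0.883, 1.51 and 0.647 CPM in depleted organoids with TNF and 2 counts over the libraries without it, and 1.19, 0.252 and 0.250 CPM in non-depleted organoids with TNF and 0.975, 0.693 and 0.912 CPM without it. Its difference was 6.14 (adjusted p = 0.000928), or 7.30 without TNF replicate 1. The 2 counts make the fitted value depend on the prior count. Cyp1a1, a target of the aryl hydrocarbon receptor, had 1.79, 0 and 3.23 CPM in depleted organoids with TNF and 2 counts over those without it, with 1 library with TNF at 0 counts, and 6 counts over the non-depleted libraries with TNF and 34 over those without it. Its difference (8.75, adjusted p = 0.0454) lost the call when any 1 library was left out except KD_TNF replicate 2, and it passed the filter only through the depleted libraries with TNF.

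The 5 lowest by the same rule were Cilp, Camkv, Car10, Lcp1 and St8sia1. Camkv, a kinase-like protein of synaptic vesicles, had 0.776, 0.811 and 1.27 CPM with TNF, against 1.64, 2.29 and 2.74 CPM without it, and 1.10, 1.54 and 1.61 CPM in non-depleted organoids with TNF and 0.172, 0.347 and 0.294 CPM without it. It fell in depleted and rose in non-depleted organoids (difference -3.59 ± 0.46, SE, adjusted p = 6.98e-05). St8sia1, the synthase of ganglioside GD3, had 5.32, 4.87 and 6.04 CPM with TNF, against 8.32, 5.16 and 8.14 CPM without it, and 3.95, 4.11 and 2.59 CPM in non-depleted organoids with TNF and 0.430, 0.578 and 0.736 CPM without it (difference -3.02 ± 0.33, adjusted p = 1.39e-05). In St8sia1 the depleted groups overlapped, and the non-depleted groups did not. Cilp differed by -4.06 (adjusted p = 0.0113), with -5.57 without KD_TNF replicate 3, -4.66 without control replicate 2 and a call lost without TNF replicate 2 (adjusted p = 0.0691). Car10 (-3.40, adjusted p = 0.0423) and Lcp1, an actin-bundling protein of leukocytes (-3.24, adjusted p = 0.0496), each lost the call in most fits that left out 1 library. Lcp1 did not fall: with TNF it rose in depleted organoids in all 14 alternatives (log2 fold change 0.42 to 4.92). Its negative difference is a smaller rise than in non-depleted organoids.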

How the data were processed

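RNA from mouse cochlear organoids was sequenced from unstranded libraries, per the labels' protocols. The authors deposited raw read counts per gene and FPKM values for 12 organoid libraries, and per the submitters' processing notes used Trimmomatic, HISAT2, HTSeq and DESeq2 on mm10, with no versions given. Counts of 15888 of 25190 genes passed filterByExpr and were tested with edgeR 4.0.16 (R 4.3.3), with TMM scaling, 1 coefficient per group over all 12 libraries and a robust quasi-likelihood F-test, with Benjamini-Hochberg adjustment across the genes tested. CPM values are counts divided by the TMM-scaled library size and put on the usual CPM scale. The 3 contrasts were TNF with depletion, TNF without depletion, which shares no library with it, and their difference. On simulated counts for the first contrast, 58% of 1.5-fold, 70% of 2-fold and 94% of 4-fold changes were recovered. Only 100, 50 and 50 of 15888 genes were changed there, while 44.8% were called in the data. The adjusted threshold depends on that share, so these rates do not measure recovery in the real contrast.

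Libraries held 33802411 to 37048422 counts, and ratios against 1 to 3 counts carry 95% intervals that cover counting error only, as does the floor of 3 counts over a group. Library numbers did not pair the samples: deviations of same-numbered libraries correlated at -0.032 to -0.002 between the depleted groups and at -0.116 to 0.292 over all pairs of the 4 groups, and not every pair exceeded 0.1. Nothing in the labels says that replicates were separate cultures, so p-values may measure technical spread. The members and the 35 gene lists were chosen with earlier results of these data known. Named genes are Rbm25 and Tnf, the 10 highest and 10 lowest changes (adjusted p under 0.05, at least 1 CPM in the higher group, separate groups, no predicted-gene name), up to 3 members per list with the smallest p, the 5 highest and 5 lowest differences of effects (adjusted p under 0.05, at least 1 CPM in a group, no predicted-gene name), and all members of the 3 TNF and NF-κB signalling lists. A gene that the rule names is not reported here, though it is counted within its list. Genes outside that rule, class II and interferon genes and the label checks among them, were chosen after their values were seen. Exon overlaps come from GENCODE vM21 and promoters from RefSeq (GRCm38.p6), with 24318 gene identifiers matched. Alternatives were DESeq2 1.42.0, its size factors, no filter, limma 3.58.1 on log2(FPKM + 1), a replicate block, a minimum fold of 1.5, only the libraries compared, and leaving out libraries.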

Additional observations from a re-analysis of the deposited data

Results flagged for a closer look

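The TNF effect differed between depleted and non-depleted organoids, by the test of the difference itself (edgeR quasi-likelihood F-test, adjusted over all genes tested, 3 libraries in each of 4 groups), for 67 named genes, and the 34 whose difference is given above follow. The named genes left out here include both signs, with Cdkn1a and Cdkn2b among the higher and Icam1 and Csf1 among the lower. Values are the log2 effect in depleted organoids minus that in non-depleted organoids. Among interferon-related genes it was 7.95 for Oas1g, 6.34 for Usp18, 5.69 for Ifit3, 5.41 for Irf7, 4.14 for Ifit1, 1.49 for Stat2 and 1.18 for Irf9, and for the class I genes H2-Q4 and H2-K1 0.68 and 0.38.

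Immediate early genes had 2.02 for Fosb, 1.198 for Fos, 0.87 for Dusp1, 0.74 for Egr1, 0.62 for Junb and 0.42 for Jun. Among NF-κB and receptor-proximal genes the difference was 0.70 for Nfkbie, 0.48 for Rnf31, 0.37 for Nfkbib, 0.34 for Birc2, 0.21 for Nfkbia, -0.56 for Tnfaip3 and -1.16 for Bcl3. It was 8.75 for Cyp1a1, 6.14 for Gpnmb, 1.29 for Sp5, 1.15 for Sod3 and 0.79 for Otog. Negative differences were -0.34 for Sc5d, -0.60 for Pcdh15, -3.02 for St8sia1, -3.24 for Lcp1, -3.40 for Car10, -3.59 for Camkv and -4.06 for Cilp. The calls of Cyp1a1, Lcp1, Car10 and Nfkbia were lost in most fits without 1 library. Oas1g, Usp18 and Cyp1a1 passed the filter only through the depleted libraries with TNF, which favours genes that are high there, so their differences are not independent of the filter.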

How the results depend on the processing

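Of 161 named genes called in depleted organoids, none changed sign under any alternative run, while 10 of the 29 not called did. Of the 161, 152 kept the call in every alternative other than the minimum fold of 1.5, and 9 lost it in at least 1. Of 67 named differences of effects, 39 kept the call in every alternative other than that minimum fold and 28 lost it in at least 1, and 1 of the 67 changed sign. Small changes that did not pass turned sign for Chuk (-0.0071 with DESeq2 size factors, -0.0070 with DESeq2, -0.0038 with no filter, -0.0096 without KD replicate 1 and TNF replicate 1), Ikbkg (-0.0017 with DESeq2 size factors, -0.0018 with DESeq2) and Ripk1 (-0.019 without KD replicate 1 and TNF replicate 1). With 1 library left out such changes ranged from -0.0048 to 0.0467 for Chuk, -0.0108 to 0.0486 for Ikbkg, -0.0082 to 0.424 for Nfkbid, -0.028 to 0.0890 for Rbck1, -0.0078 to 0.172 for Ripk1 and -0.0538 to 0.020 for Tab1. The Rbm25 difference of effects ranged from -0.0025 to 0.117 in those fits and was -0.0012 without KD replicate 1 and TNF replicate 1. For the TNF effect in depleted organoids, counts of higher and lower genes were 3546 and 3403 with a replicate block, 3363 and 3781 with DESeq2, 3382 and 3586 with no filter, and 3719 and 3352 with limma on FPKM. Requiring a 1.5-fold change gave 795 and 535 in depleted organoids, 713 and 646 in non-depleted organoids, and 79 and 33 for the difference, and ended the call of the Rbm25 difference between depleted and non-depleted organoids both with TNF (-0.55, adjusted p = 1) and without it (-0.61, adjusted p = 0.555). Leaving out 1 library gave 3189 to 3566 higher and 2975 to 3292 lower genes in depleted organoids, 3212 to 3548 and 3314 to 3587 in non-depleted ones, and 794 to 1480 and 440 to 935 for the difference, and without KD replicate 1 and TNF replicate 1 the lower count of the difference was 961. With 1 library left out, Rbm25 ranged from -0.613 to -0.497 with TNF and from -0.632 to -0.598 without it. The replicate block gave 1086 and 655 differences, and library numbers were not taken to pair samples. Hair cell falls numbered 7 without a filter and 5 with only the compared libraries. Elastic fibre and collagen falls numbered 14 without KD replicate 1 and TNF replicate 1. The cause of these shifts was not tested. Depth limits the genes with under 4 counts without TNF, whose size is known only as a bound or an interval.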
